A study of Homo sapiens with 9 samples.

Results

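The collagen chain genes are the 44 genes, of 61487 gene identifiers counted, whose symbols consist of COL, a number, A and a number. Antisense genes and pseudogenes were left out. They were measured by RNA-seq of total RNA in SH-SY5Y, a line cloned from the human neuroblastoma culture SK-N-SH that resembles immature cells of the sympathetic nervous system. The cells received vehicle (0 µM), 10 µM or 20 µM citrinin, a kidney-toxic product of moulds, and were harvested after 72 h in MEM/F12 with 15% fetal bovine serum. Each group held 3 libraries, numbered 1 to 3 in their titles. The labels do not say what a replicate number stands for, nor whether the libraries came from separate cultures, so the p-values below measure the spread between these libraries, which may be technical.

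Collagens are secreted or membrane-bound proteins whose chains carry glycine at regular steps, written Gly-X-Y, and wind around each other into a stiff helix. Fibrillar collagens are types I, II, III, V, XI, XXIV and XXVII. Their long helix has few or no breaks, and they pack side by side into fibrils, the tension-bearing cables of connective tissue. Type IV chains have a helix with many breaks and join end to end into the meshwork of basement membranes, the sheets that underlie epithelia and surround nerves and vessels. The remaining types decorate fibrils, form beaded filaments or anchoring fibrils, or span the cell membrane.

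The difference between the classes can be read in their coding sequences. In the longest annotated coding sequence of each gene (GENCODE 29), glycine codons (GGN, where N is any base) stood at the first position of successive codon triplets. The longest unbroken run held 216 to 343 triplets in the 11 fibrillar genes, 38 to 66 in the 6 type IV genes and 23 to 113 in the 27 genes of other types. Among the fibrillar genes COL24A1 (216) and COL27A1 (217) had the shortest, and the next was COL5A3 at 337. Counting runs of at least 5 triplets, type IV genes had 22 to 27 separate runs and fibrillar genes 2 or 3. The stretches below, 90 bases each, show 1 gene per class among those with high levels in these cells: the inside of the COL5A1 run (codons 559 to 588, chromosome 9, plus strand), the end of the longest COL4A1 run (codons 1338 to 1367, chromosome 13, minus strand) and the inside of the COL6A2 run (codons 256 to 285, chromosome 21, plus strand). Capitals mark glycine codons.
COL5A1: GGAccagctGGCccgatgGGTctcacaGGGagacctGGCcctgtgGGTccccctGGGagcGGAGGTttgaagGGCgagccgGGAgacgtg
COL4A1: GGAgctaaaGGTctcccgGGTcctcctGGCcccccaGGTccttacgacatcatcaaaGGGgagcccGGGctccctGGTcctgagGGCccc
COL6A2: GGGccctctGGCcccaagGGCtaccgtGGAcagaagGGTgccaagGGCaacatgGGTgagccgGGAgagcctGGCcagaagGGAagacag
The COL4A1 stretch holds 9 glycine codons and loses the step once before the next run starts. The COL5A1 stretch holds 11, of which 10 keep the step, and the COL6A2 stretch holds 10 with no break.

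All 44 genes had a read in at least 1 library. Levels are CPM, counts scaled to the library's gene reads with TMM normalization. A level compared between genes is CPM per kb of the longest protein-coding transcript. Library totals ran from 15678443 to 19604367 gene reads, so that 3 reads, taken as the floor of detection for counting error, equal 0.153 to 0.191 CPM. Collagen genes together took 0.276% to 0.418% of the gene reads of a library. Of the 44, 14 averaged at least 10 CPM, 10 averaged 1 to 10 CPM and 20 averaged under 1 CPM. The strands were not distinguished in the libraries, so a read from exons shared with a gene on the other strand fits both genes. Such a read is ambiguous and was counted for neither gene, so an overlap can lower the level of a collagen gene. The largest such overlap is that of COL18A1 with SLC19A1, over 1401 exonic bases. Among the other 8 genes with such an overlap it covers at most 270 bases.

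Type III collagen dominated. COL3A1 (chromosome 2, 188974320 to 189012746, plus strand), whose chains form type III collagen on their own, averaged 289 CPM per kb and ranked 123 among 19600 protein-coding genes. COL4A2 and COL4A1, the chains of the common basement membrane network, averaged 73.7 and 50.8 CPM per kb. COL6A2 and COL6A1, chains of the beaded filaments of type VI, averaged 72.0 and 26.5 CPM per kb. COL1A1, the main chain of type I collagen, averaged 38.8 CPM per kb, and COL5A1, a chain of the type V collagen that sets fibril width, 29.6 CPM per kb. COL1A2, the partner chain of COL1A1 in type I collagen, averaged 2.40 CPM per kb. The order below COL3A1 rests on the length used: per kb of all annotated exons COL3A1 stood at 235, COL6A2 at 46.2, COL1A1 at 26.6, COL4A2 at 24.8, COL4A1 at 22.8, COL5A1 at 22.4 and COL6A1 at 21.1. By longest transcript, the ranges of COL4A2 (61.8 to 85.5 CPM per kb) and COL6A2 (57.3 to 86.6) overlapped over the 9 libraries, and the range of COL1A1 (9.45 to 68.0) overlapped those of COL4A1 (38.3 to 64.3) and COL5A1 (20.7 to 37.6), which did not overlap each other, whereas no library of another collagen reached the lowest COL3A1 library.

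**Figure D1:**
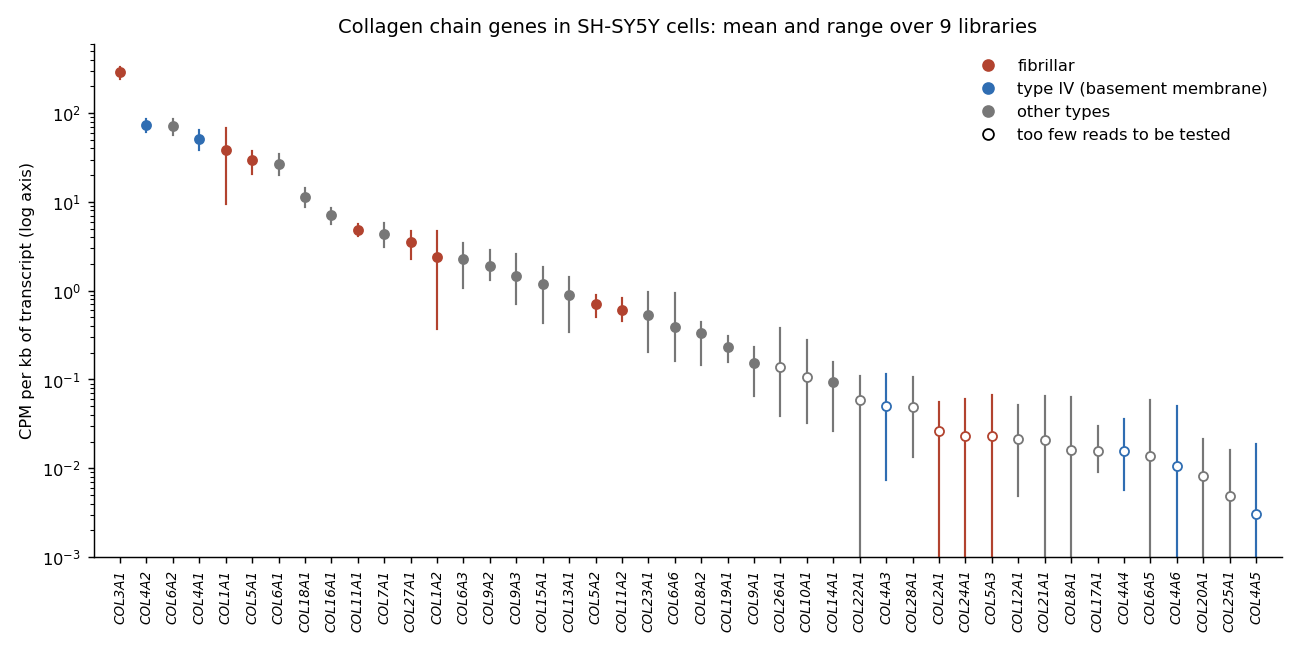
Mean CPM per kb of the longest protein-coding transcript (log axis) for each of the 44 collagen chain genes, ordered by level. Points are means and lines the range over 9 libraries (a line that reaches the axis marks a library with 0 reads). COL3A1 stands alone at the top at 289 CPM per kb, and the lines of COL1A1 and COL1A2 are the longest among the 14 best-expressed genes.

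The class shares of the collagen reads stayed within narrow ranges. Fibrillar genes held 59.7% to 63.8% of the collagen CPM of a library, type IV genes 21.4% to 23.8% and all other types 14.9% to 16.5%. The fibrillar share was highest in number 3 at each dose, at 62.9%, 63.8% and 62.4% for vehicle, 10 µM and 20 µM. COL3A1 alone held 39.6% to 50.0%, and the fibrillar genes without COL3A1 summed to 307 to 879 CPM. The 6 genes COL3A1, COL4A2, COL4A1, COL1A1, COL5A1 and COL6A2 together held 88.3% to 89.0%. The high share of COL3A1 fell in the libraries numbered 2, at 48.4%, 49.6% and 50.0% for vehicle, 10 µM and 20 µM, and its low share in those numbered 1, at 39.6%, 40.3% and 40.9%.

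At the low end stood 18 genes that edgeR's filter on low counts left out of the tests, each averaging under 1 CPM, with 3 to 65 reads over all 9 libraries. Of these, 11 had 0 reads in at least 1 library: COL2A1, COL4A5, COL4A6, COL5A3, COL6A5, COL8A1, COL20A1, COL21A1, COL22A1, COL24A1 and COL25A1. The other 7 were COL4A3, COL4A4, COL10A1, COL12A1, COL17A1, COL26A1 and COL28A1. Type IV collagen was represented almost wholly by COL4A1 and COL4A2: COL4A3, COL4A4, COL4A5 and COL4A6, the chains of the tissue-restricted basement membrane networks of kidney and lung, averaged 0.410, 0.156, 0.020 and 0.072 CPM. COL2A1, the fibril chain of cartilage, had 21 reads over 9 libraries. COL17A1, a transmembrane collagen of the skin's attachment to its basement membrane, averaged 0.090 CPM. The filter kept 26 collagen genes among 17806 genes.

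COL4A1 and COL4A2 lie head to head on chromosome 13, with 126 bases between their start sites in RefSeq (GRCh38.p14), chr13:110307158-110307283. The stretch is shown because the data bear on both genes whose RefSeq starts it separates. It is written on the plus strand, with COL4A1 running off to the left and COL4A2 to the right. Capitals mark a CCAAT box (CCAAT, from base 22) and a GC box (GGGCGG, from base 62), which do not overlap. GENCODE 29 places a start of COL4A1 inside the stretch, at 110307233. It starts COL4A2 at 110305812, to the left of the stretch, so in that annotation the spans of these genes overlap, though their exons do not.
COL4A1-COL4A2: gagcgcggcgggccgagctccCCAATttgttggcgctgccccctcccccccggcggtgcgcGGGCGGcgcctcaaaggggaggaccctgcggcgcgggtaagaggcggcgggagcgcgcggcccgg
On either strand, CCAAT occurs in 21.1%, GGGCGG in 34.6% and TATAAA, which is not in this stretch, in 5.87% of the 35116 RefSeq windows of the 126 bases before a start site. Among the 44 windows of the 32 collagen genes found in that table the shares are 18.2%, 43.2% and 11.4%. A match of letters is a description of the sequence and says nothing of a factor bound there. The ratio of COL4A1 to COL4A2, in CPM per kb, was 0.752, 0.620 and 0.657 in vehicle libraries 1, 2 and 3, 0.742, 0.606 and 0.731 at 10 µM, and 0.695, 0.627 and 0.721 at 20 µM. In each dose group the library numbered 2 was the lowest of the 3.

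Citrinin left the collagen genes without a call. In the comparison of 20 µM with vehicle, 0 of the 26 tested genes passed an adjusted p of 0.05 in edgeR's quasi-likelihood test over all 9 libraries, beside 0% of all 17806 genes tested. With the replicate number added to the model as a block, which removes the difference between numbers from the error, the count was again 0 of 26, beside 2.21% of all genes. At an unadjusted p under 0.05 the counts were 0 of 26 without the block, beside 2.17% of all genes, and 4 of 26 with it, beside 13.1%. The 20 µM and vehicle libraries overlapped for all 26, beside 6.76% of all genes whose groups did not overlap. DESeq2 and limma-voom, without the block, also called 0 collagen genes. The share of all genes they called was not computed, so these counts have no background beside them. In bulk RNA a lower level cannot be told apart between fewer cells of a type and less RNA per cell, which holds for all values here.

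The fibrillar genes with the highest levels had overlapping dose groups. COL3A1 was at 1662, 1333 and 1714 CPM in vehicle libraries 1, 2 and 3, at 1653, 1442.5 and 1837 CPM at 10 µM, and at 1634, 1445 and 1711 CPM at 20 µM. The dose groups overlapped throughout, with means of 1570 ± 206, 1644 ± 197 and 1597 ± 137 CPM (SD, n = 3 each). The log2 difference at 20 µM was 0.03 ± 0.05 (SE) with the block, with a 95% interval of -0.06 to 0.12, and the interval without the block was -0.27 to 0.32. COL1A1 was at 458, 66.6 and 274 CPM in vehicle, at 415, 70.3 and 302 CPM at 10 µM, and at 413, 63.6 and 285 CPM at 20 µM. In every dose group its library numbered 2 was far below the others, so that the interval of the difference at 20 µM was -0.16 to 0.05 with the block and -2.21 to 2.07 without it. COL1A2 repeated this layout at a lower level, with 25.2, 2.10 and 16.3 CPM in vehicle, 18.4, 2.26 and 17.0 CPM at 10 µM, and 18.0, 2.0 and 15.7 CPM at 20 µM. Its 20 µM library was below its vehicle library in 3 of 3 pairs, with a log2 difference of -0.26 ± 0.13 and an adjusted p of 0.364 with the block, so the difference did not pass.

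Among the minor fibrillar chains, COL5A1 was at 319, 179 and 266 CPM in vehicle, at 309, 182 and 283 CPM at 10 µM, and at 280.5, 176 and 263 CPM at 20 µM. COL11A1, a chain of type XI collagen from the core of cartilage fibrils, was at 33.3, 36.7 and 37.0 CPM in vehicle, at 32.6, 41.0 and 38.4 CPM at 10 µM, and at 29.9, 34.8 and 34.5 CPM at 20 µM. Here the libraries numbered 1 were the lowest at each dose, unlike in the genes above. COL27A1, a fibrillar collagen of growing cartilage, was at 32.9, 18.8 and 24.5 CPM in vehicle, at 36.1, 17.6 and 25.9 CPM at 10 µM, and at 36.9, 22.8 and 31.1 CPM at 20 µM. Its 20 µM library was above the vehicle library in 3 of 3 pairs, and it had the smallest adjusted p of any collagen gene in this comparison, 0.105 with the block, for a log2 difference of 0.26 ± 0.08. Without the 20 µM library numbered 1 the difference was 0.34, with an adjusted p of 0.0273 in the fit with the block, the one setting of 33 in which a collagen gene passed in this comparison.

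**Figure D2:**
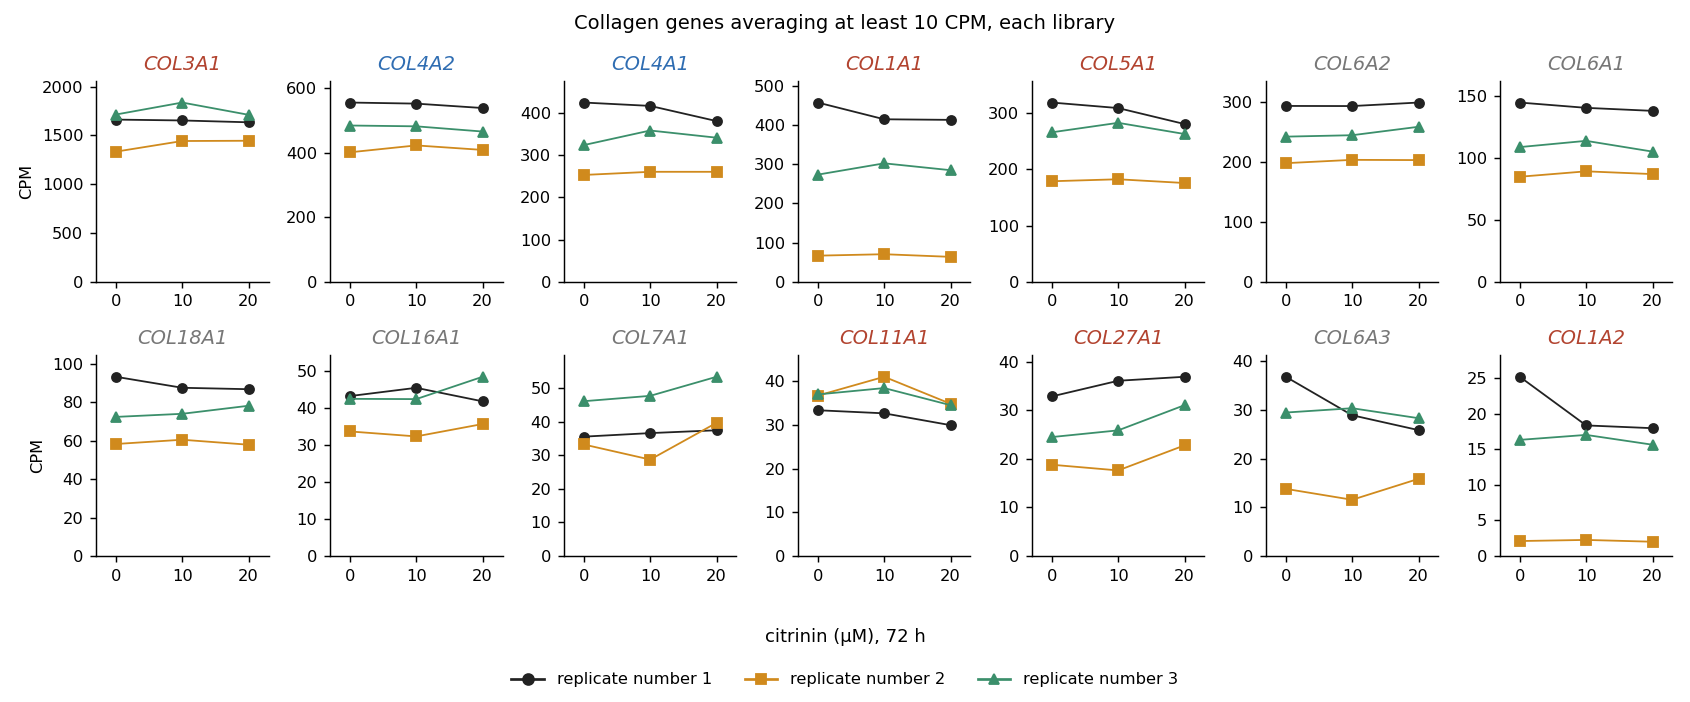
CPM in each of the 9 libraries for the 14 collagen genes that average at least 10 CPM, against citrinin dose (µM), with lines joining libraries of the same replicate number; gene names are coloured as fibrillar (red), type IV (blue) or other (grey). The lines of COL1A1 run apart, while those of COL6A3, COL7A1, COL11A1 and COL16A1 cross: COL1A1 lies between 413 and 458 CPM in the libraries numbered 1 and between 63.6 and 70.3 CPM in those numbered 2.

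The basement membrane chains, too, had overlapping dose groups. COL4A1 was at 425, 253 and 324 CPM in vehicle, at 417, 261 and 359 CPM at 10 µM, and at 381, 261 and 342 CPM at 20 µM. COL4A2 was at 555, 401 and 484 CPM in vehicle, at 552, 422 and 482 CPM at 10 µM, and at 538, 408 and 465 CPM at 20 µM. With the block their log2 differences at 20 µM were -0.01 ± 0.05 and -0.03 ± 0.04, and the ends of the 95% intervals stayed between -0.12 and 0.08. COL18A1, a basement membrane collagen whose cut end is known as endostatin, was at 93.4, 58.3 and 72.5 CPM in vehicle, at 87.6, 60.6 and 74.1 CPM at 10 µM, and at 86.9, 58.0 and 78.3 CPM at 20 µM. Its interval at 20 µM with the block was -0.12 to 0.12.

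The filament-forming type VI chains followed. COL6A1 was at 145, 84.9 and 109 CPM in vehicle, at 141, 89.2 and 114 CPM at 10 µM, and at 138, 87.0 and 105 CPM at 20 µM. COL6A2 was at 294, 198 and 243 CPM in vehicle, at 294, 204 and 245 CPM at 10 µM, and at 300, 204 and 259 CPM at 20 µM. COL6A3, the long chain that completes the type VI molecule, was at 36.9, 13.8 and 29.5 CPM in vehicle, at 28.9, 11.6 and 30.4 CPM at 10 µM, and at 25.9, 15.9 and 28.3 CPM at 20 µM. In all of these the libraries numbered 2 were the lowest at each dose. COL16A1, which attaches to other fibrils, was at 43.2, 33.6 and 42.4 CPM in vehicle, at 45.4, 32.3 and 42.4 CPM at 10 µM, and at 41.8, 35.6 and 48.4 CPM at 20 µM. COL7A1, the anchoring fibril collagen of skin, was at 35.6, 33.2 and 46.1 CPM in vehicle, at 36.6, 28.7 and 47.7 CPM at 10 µM, and at 37.5, 39.7 and 53.4 CPM at 20 µM. Its 20 µM library was the highest of its replicate number in 3 of 3, with a log2 difference from vehicle of 0.18 ± 0.07 and an adjusted p of 0.261 with the block.

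Over the 26 tested collagen genes the median log2 difference at 20 µM was -0.03 with the block, beside -0.0016 over all genes tested. Of the 26, 10 (38.5%) were above 0 in that fit, beside 49.4% of all genes. The class medians were -0.06 for 8 fibrillar, -0.02 for 2 type IV and -0.02 for 16 other genes. For the 14 genes named above, 13 had a blocked 95% interval within 0.5 of 0 on the log2 scale, and 6 had such an interval without the block. The exception with the block was COL1A2, whose interval ran from -0.52 to -0.01. Among the 12 low-level tested genes, COL23A1, a transmembrane collagen, had the largest difference, -0.88 ± 0.33 with an adjusted p of 0.217 with the block. It was at 2.98, 1.65 and 1.47 CPM in vehicle, at 1.62, 2.20 and 1.48 CPM at 10 µM, and at 1.81, 0.916 and 0.628 CPM at 20 µM, so the 20 µM and vehicle libraries overlapped.

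The other low-level genes tested came from several collagen types. COL5A2, the partner of COL5A1, ranged from 3.62 to 6.29 CPM over the 9 libraries, and COL11A2, the partner of COL11A1, from 2.92 to 5.31 CPM. The type IX chains COL9A1, COL9A2 and COL9A3 ranged from 0.307 to 1.10, 3.74 to 8.29 and 1.75 to 6.39 CPM. COL15A1 ranged from 2.37 to 10.1 CPM and COL6A6 from 1.54 to 9.01 CPM. COL15A1 was lowest in the libraries numbered 1 at each dose, and COL6A6 was highest there. COL8A2, a short chain of sheet-like networks in the eye, ranged from 0.687 to 2.08 CPM, COL13A1 from 1.10 to 4.57 CPM, COL14A1, which binds fibril surfaces, from 0.170 to 1.03 CPM, and COL19A1 from 0.968 to 1.94 CPM.

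**Figure D3:**
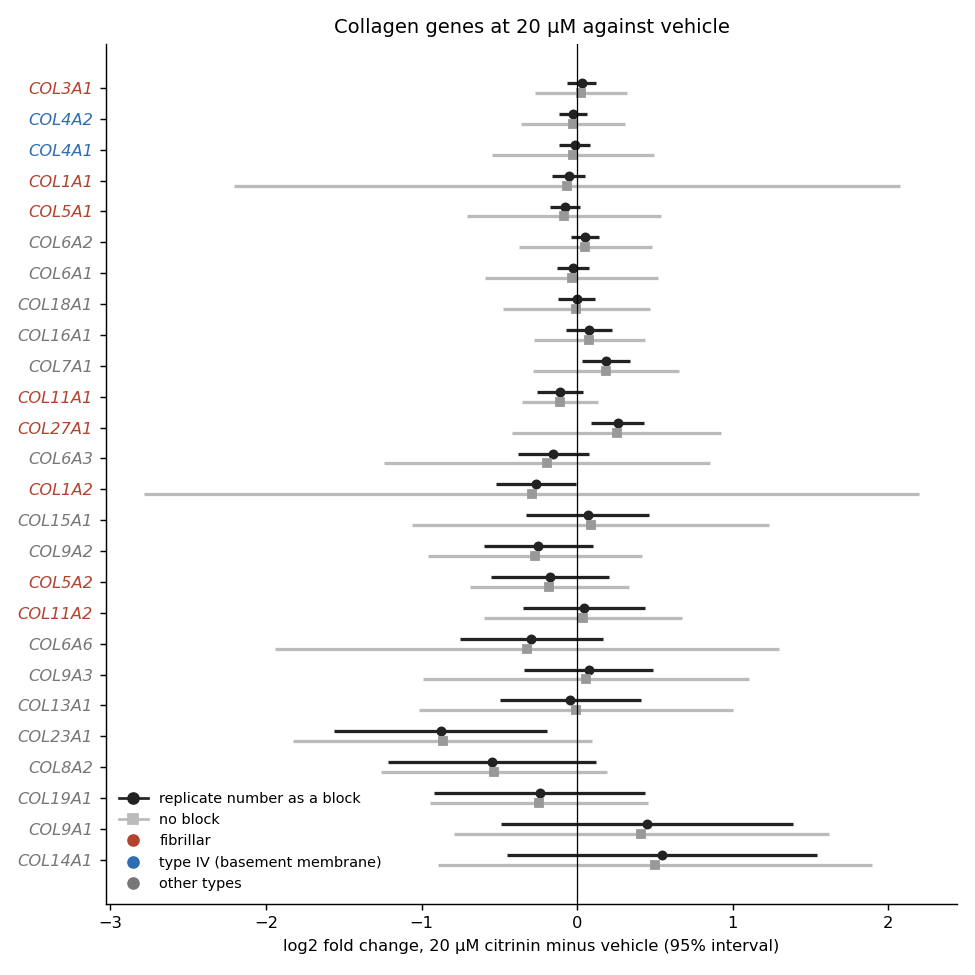
Log2 fold change at 20 µM citrinin minus vehicle for the 26 tested collagen genes, ordered by mean CPM, with 95% intervals from the blocked fit by number (black circles) and the fit with dose alone (grey squares). The COL1A1 interval shrinks from -2.21 to 2.07 without the block to -0.16 to 0.05 with it.

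At 10 µM against vehicle 0 of 26 collagen genes passed in either fit, beside 0% of all genes without the block and 0.0337% with it. The median log2 difference was 0.02, and all 14 named genes had a blocked interval within 0.5 of 0. COL13A1, a transmembrane collagen of the nerve-muscle junction, averaged 2.06 CPM at 10 µM and 3.20 CPM in vehicle, the one of 26 at an unadjusted p under 0.05 with the block, beside 3.59% of all genes, and without the block the count was 0, beside 0.646%. The groups overlapped for all 26, beside 4% of all genes for which they did not. At 20 µM against 10 µM 0 of 26 passed in either fit, beside 0% without the block and 0.444% with it, and the median was -0.05. At an unadjusted p under 0.05 there were 8 of 26 with the block, beside 8.81% of all genes, and 0 without it, beside 1.18%: COL5A1, COL6A6, COL8A2, COL11A1 and COL23A1 were lower at 20 µM, and COL7A1, COL13A1 and COL27A1 higher. Of the 26, 9 were lower at 20 µM in 3 of 3 pairs and 3 higher. The matching shares of all genes were not computed, so nothing about collagen genes is read from these counts. The groups did not overlap for 1, COL8A2, beside 4.87% of all genes. COL6A6, a type VI chain, had the smallest adjusted p there, 0.308 with the block, at 2.91 against 4.67 CPM. With the 3 libraries numbered 2 left out, COL6A6 was the 1 collagen gene to pass this comparison. The comparisons share libraries, so their values are not independent.

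The other genes of the collagen pathway were also mostly without a call at 20 µM against vehicle. None of the lists had a call without the block, and the counts that follow are from the fit with it, in which 2.21% of all genes passed. On simulated counts the fit with the block gave a share of false calls above the nominal one. The 22 genes that hydroxylate, fold and export the chains gave 0 calls, with a median log2 difference of 0.03. The 5 tested cross-linking genes and the 11 tested fibril partners gave 0 calls as well. Of 7 tested genes of propeptide cleavage, ADAMTS2, the protease that trims the amino ends of fibrillar procollagens, fell from 18.6 to 12.7 CPM (log2 -0.56 ± 0.12, adjusted p = 0.00622, lower in 3 of 3 pairs). Of 8 tested collagen receptors, the integrin chains ITGA1 and ITGA11 fell by 0.23 and 0.25 on the log2 scale (adjusted p = 0.00324 and 0.0201). Of 14 tested basement membrane partners, LAMB3, a chain of the laminin that anchors epithelia, rose from 18.2 to 23.8 CPM (log2 0.39 ± 0.09, adjusted p = 0.0221). At 10 µM against vehicle and at 20 µM against 10 µM these lists gave 0 calls.

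Collagen levels differed more between replicate numbers than between doses. The summed variance was taken in log2 CPM with a prior count of 2 added. Over the 26 tested collagen genes, 86.2% of it lay between numbers and 7.26% between doses, beside 62.2% and 13.6% over all tested genes. Such a sum gives most weight to genes with large differences, here COL1A1 and COL1A2, and the shares without these genes were not computed. Gene by gene, in log2(CPM + 0.5), the number's share was the larger in 23 of the 26 genes. It was the larger in all 14 named genes, and it exceeded 90% in 10 of them. It was 99.7% for COL1A1 and 99.0% for COL1A2, and lowest among the named genes for COL11A1, at 62.6%. By the mean over doses, 13 of the 14 named genes were lowest in number 2. COL7A1 was among them, though at 20 µM it was at 37.5 CPM in number 1 and 39.7 CPM in number 2. For these gene-by-gene counts the matching shares of all genes were not computed, so nothing about collagen genes is read from them.

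With dose in the model, 16 of the 26 collagen genes were higher in number 1 than in number 2 and 4 were lower, beside 17.4% and 19.4% of all genes tested. The median log2 difference of the 26 was 0.53, beside 0.0013 over all genes. COL1A1 averaged 429 CPM in number 1 and 66.8 CPM in number 2 (log2 2.68 ± 0.05, adjusted p = 9.58e-23). COL1A2 averaged 20.5 and 2.12 CPM (log2 3.27 ± 0.15, adjusted p = 1.01e-15). The next largest differences among genes averaging at least 10 CPM were those of COL6A3 (30.6 and 13.7 CPM, log2 1.14 ± 0.12) and COL27A1 (35.3 and 19.7 CPM, log2 0.84 ± 0.08). COL3A1 differed by far less than COL1A1, with 1650 and 1407 CPM (log2 0.23 ± 0.05, adjusted p = 0.000233).

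By class, 6 of 8 tested fibrillar genes were higher in number 1, COL1A1, COL1A2, COL3A1, COL5A1, COL11A2 and COL27A1, and 1, COL11A1, was lower (32.0 against 37.5 CPM, log2 -0.23 ± 0.07, adjusted p = 0.0125). The COL11A1 call was lost without the 10 µM library numbered 1 (-0.19, adjusted p = 0.0715) or numbered 2 (-0.19, adjusted p = 0.0813). Both tested type IV genes were higher, by 0.66 for COL4A1 and 0.42 for COL4A2 on the log2 scale. Of the 16 other genes 8 were higher: COL6A1, COL6A2, COL6A3, COL6A6, COL13A1, COL14A1, COL16A1 and COL18A1. COL14A1 had few reads, 11, 14 and 11 in number 1 against 3, 3 and 8 in number 2 (vehicle, 10 µM, 20 µM). The 3 that were lower were COL9A2 (3.88 against 6.84 CPM), COL9A3 (2.02 against 5.23 CPM) and COL15A1 (3.42 against 7.33 CPM). COL9A2 and COL9A3 are chains of type IX collagen, which coats the fibrils of cartilage, and COL15A1 codes for a basement membrane collagen related to COL18A1. Within each dose the number 1 library lay below the number 2 library for COL9A2, COL9A3, COL11A1 and COL15A1.

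Between numbers 1 and 3, 12 of 26 were higher in number 1 and 5 lower, beside 17.9% and 19.3% of all genes. COL1A1 (429 against 287 CPM, log2 0.58 ± 0.05, adjusted p = 4.61e-10) and COL6A6 (6.86 against 2.31 CPM) were among those higher. COL7A1 was lower in number 1 (36.6 against 49.1 CPM, log2 -0.42 ± 0.07), as were COL9A2, COL9A3, COL11A1 and COL15A1. COL3A1 did not pass (1650 against 1754 CPM, adjusted p = 0.142). The COL1A2 call (20.5 against 16.3 CPM, log2 0.32 ± 0.11, adjusted p = 0.0230) was lost with DESeq2, at an adjusted p of 0.0940, and without either of 2 libraries. It was 0.15 with an adjusted p of 0.398 without the vehicle library numbered 1, and 0.19 with 0.307 without the vehicle library numbered 3. The COL5A1 call (log2 0.16 ± 0.05) was lost without either of these libraries too, at 0.12 and 0.13 with adjusted p of 0.126 and 0.0995. The COL11A1 call (log2 -0.20 ± 0.07, adjusted p = 0.0308) held in 7 of 14 settings, with adjusted p up to 0.139. It was lost with DESeq2, without a filter, and without the vehicle library numbered 3, the 10 µM library numbered 1 or 3, or the 20 µM library numbered 1 or 3. Without the vehicle library numbered 3 the count fell to 11 genes, 8 higher and 3 lower.

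Between numbers 2 and 3, 14 of 26 were lower in number 2 and 0 higher, beside 5.86% and 5.88% of all genes. COL1A1 averaged 66.8 against 287 CPM (log2 -2.10 ± 0.05) and COL1A2 2.12 against 16.3 CPM (log2 -2.95 ± 0.15). Among those that passed, COL13A1 (log2 -1.31 ± 0.23), COL6A3 (-1.10 ± 0.11) and COL5A1 (-0.60 ± 0.05) had the next largest differences. COL14A1, at 0.274 against 0.817 CPM, differed by -1.55 ± 0.52 and did not pass (adjusted p = 0.0513). Both type IV genes were lower, by -0.40 for COL4A1 and -0.22 for COL4A2. These 3 comparisons share libraries, so each gives its own values and no count of common genes is drawn from them.

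**Figure D4:**
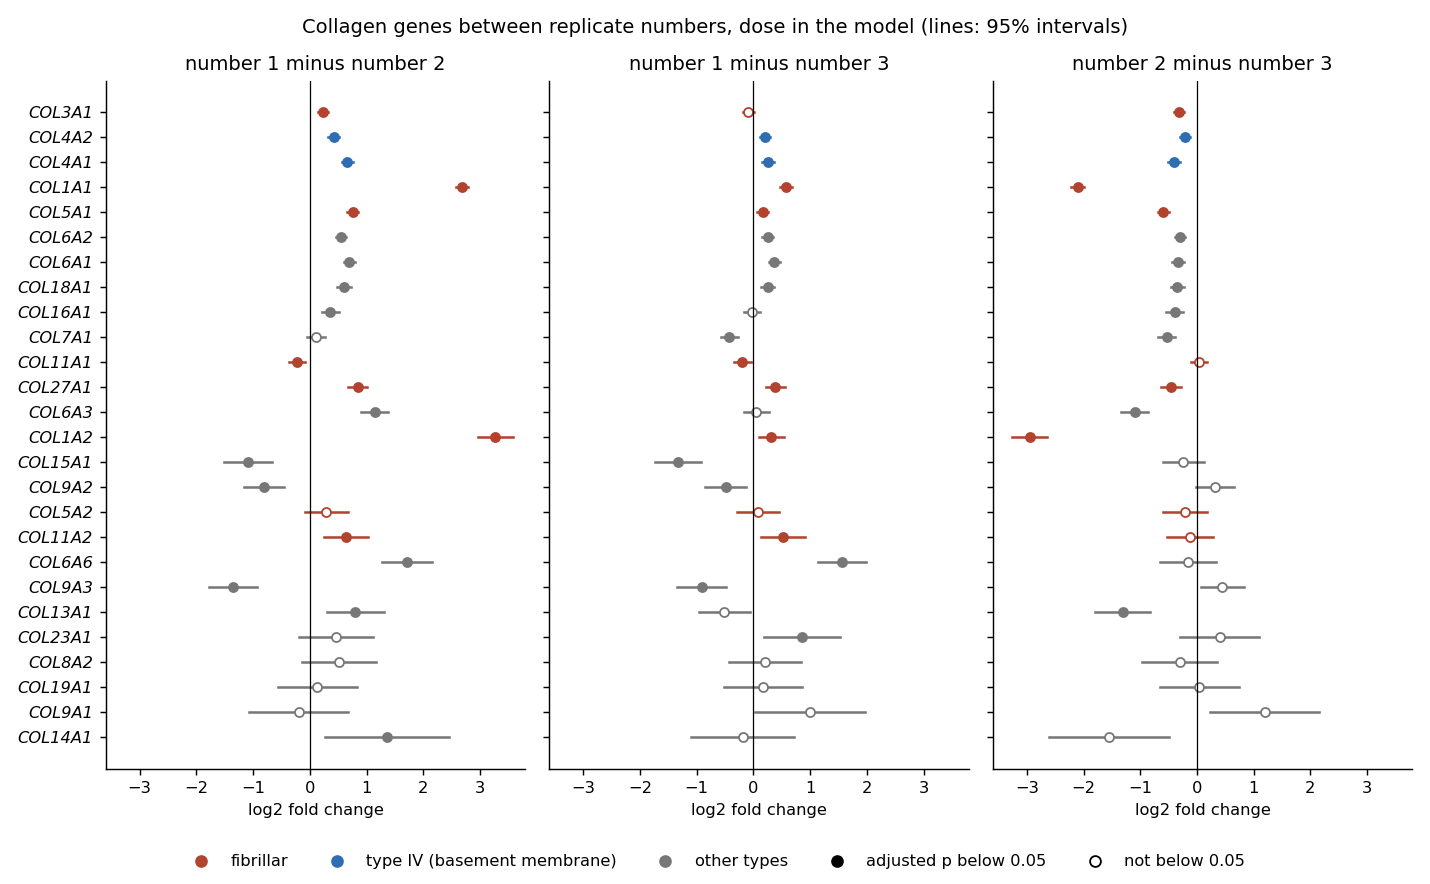
Log2 fold changes between replicate numbers, with dose in the model, for the 26 tested collagen genes ordered by mean CPM; lines are 95% intervals and filled points passed an adjusted p of 0.05. COL1A1 (2.68) and COL1A2 (3.27) stand far right in number 1 minus number 2, while COL9A2, COL9A3, COL11A1 and COL15A1 lie left of 0 there.

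Partner chains of a molecule differed in their balance between libraries. The ratio of COL1A1 to COL1A2, in CPM per kb, was 14.6, 25.5 and 13.5 in vehicle libraries 1, 2 and 3, 18.2, 25.0 and 14.3 at 10 µM, and 18.5, 25.5 and 14.6 at 20 µM. It was highest in number 2 at each dose, where both genes were lowest. With lengths from all annotated exons in place of the longest transcript the 9 ratios ran from 19.0 to 36.0. The ratio of COL6A1 to COL6A2 stayed between 0.331 and 0.402, while that of COL6A2 to COL6A3 ran from 24.8 to 54.8 and was highest in number 2 at each dose. COL5A1 exceeded COL5A2, its partner in type V collagen, 28.8-fold to 57.4-fold per kb. COL11A1 exceeded COL11A2 5.39-fold to 10.8-fold, with number 1 lowest at each dose.

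Of the 9 ratios computed, that between type III and type I spread the most. COL3A1 stood above COL1A1 per kb by 4.41-fold, 24.3-fold and 7.60-fold in vehicle libraries 1, 2 and 3, by 4.84-fold, 24.9-fold and 7.37-fold at 10 µM, and by 4.80-fold, 27.6-fold and 7.29-fold at 20 µM. The means by dose were 12.1 ± 10.7, 12.4 ± 10.9 and 13.2 ± 12.5 (SD, n = 3 each), and the dose groups overlapped. The 3 replicate numbers did not overlap.

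**Figure D5:**
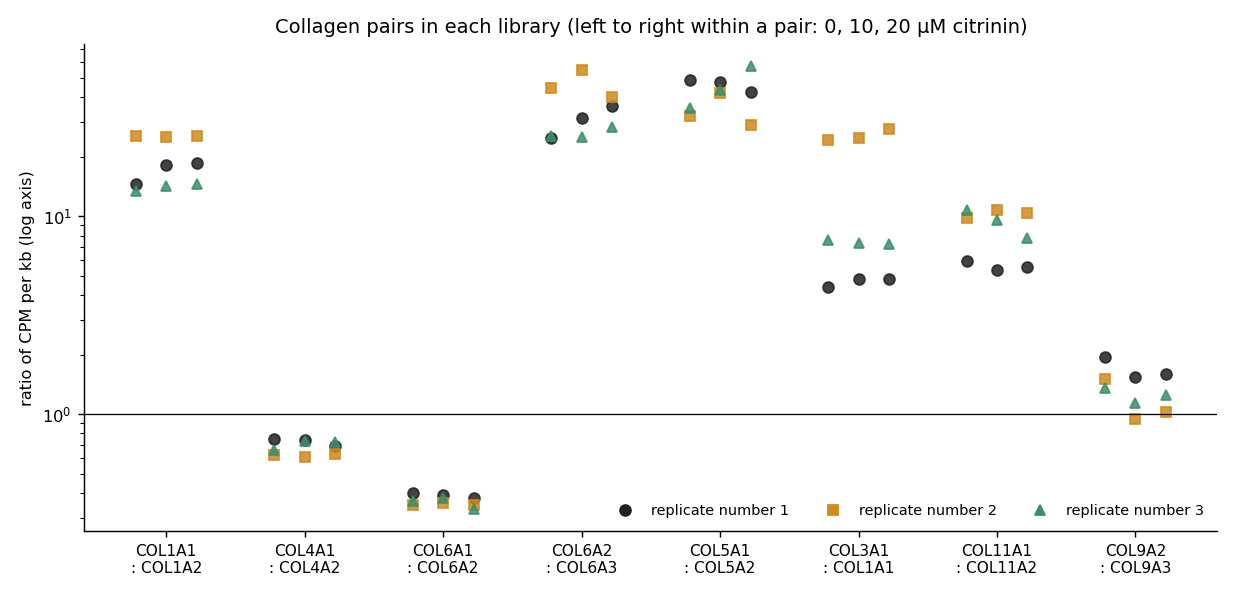
Ratio of CPM per kb (log axis) between pairs of collagen genes in each of the 9 libraries, with doses side by side within a pair and the replicate number shown by symbol. COL3A1 to COL1A1 falls into 3 bands by number, from 4.41 to 27.6, whereas COL4A1 to COL4A2 and COL6A1 to COL6A2 stay below 1 in all 9 libraries (with lengths from all annotated exons COL4A1 to COL4A2 reaches 1.003).

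Between numbers 1 and 2 the lists of genes that act with the collagens gave calls in different directions, and no list was tested against all genes. Of the 11 tested fibril partners 8 were higher in number 1 and 2 lower, of 7 tested propeptide genes 4 and 1, of 22 chain modification and folding genes 8 and 5, of 5 tested cross-linking genes 2 and 0, of 14 tested basement membrane partners 6 and 2, and of 8 tested receptors 0 and 4, beside 17.4% higher and 19.4% lower among all genes. The following genes were chosen after their values were seen. POSTN, a matricellular protein that binds type I collagen, was at 62.8, 65.0 and 55.3 CPM in number 1 (vehicle, 10 µM, 20 µM), at 38.7, 40.3 and 35.4 CPM in number 3, and at 0, 0 and 0.229 CPM in number 2, near the floor of 3 reads. PLOD2, which hydroxylates lysines of the chain ends, averaged 22.6, 3.22 and 18.4 CPM in numbers 1, 2 and 3. BGN, a proteoglycan that binds fibrils, averaged 215, 37.2 and 139 CPM, and SPARC, a collagen-binding glycoprotein, 723, 390 and 582 CPM. Like COL1A1, these 4 genes were lowest in number 2 at each dose. Of the other tested fibril partners, FN1, THBS1, THBS2 and FBN2 were also lowest in number 2 at each dose, FBN2 averaging 0.211 CPM there. DCN and LUM were lowest in number 3 at each dose, and TNC, FBN1 and TNXB (0.466 CPM on average) in number 1. TNC, a glycoprotein of remodelling matrix, averaged 1264, 1681 and 2080 CPM in numbers 1, 2 and 3. FBN1, the main chain of microfibrils, averaged 569, 714 and 824 CPM.

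Markers of other cell types were checked in the same libraries. Of 14 neuroblast markers 13 were expressed at over 1 CPM, and TH, the first enzyme of catecholamine synthesis, averaged 0.020 CPM. All 6 endothelial markers, the Schwann markers SOX10 and GFAP and the epithelial marker CDH1 averaged under 1 CPM, and all 14 fibroblast and mesenchymal markers were above it. The summed level of the latter was 1803 to 1913 CPM in number 1, 1473 to 1615 CPM in number 2 and 1801 to 1953 CPM in number 3. Between numbers 1 and 2, 8 of the 14 were higher in number 1 and 5 lower, and of 13 tested neuroblast markers 8 and 5, beside 17.4% and 19.4% of all genes. The mesenchymal markers had no single order, as 4 chosen after their values were seen show. PRRX1, a mesenchymal transcription factor, averaged 133, 28.5 and 89.2 CPM in numbers 1, 2 and 3, and CD44, a receptor for hyaluronan, 108, 170 and 250 CPM. LUM, a fibril-binding proteoglycan, averaged 56.4, 22.4 and 17.0 CPM, and ACTA2, the smooth muscle actin, 81.1, 108 and 120 CPM. The neuroblast markers summed to 3628 to 4005 CPM, 3281 to 3960 CPM and 2631 to 3224 CPM in numbers 1, 2 and 3. The part of these cell states in the collagen differences was not tested.

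The same marker lists were read by dose. Without the block 0 of their genes passed, and the counts that follow are from the fit with it, whose share of false calls on simulated counts was above the nominal one. At 20 µM against vehicle 10 of 13 tested neuroblast markers fell, among them RET (log2 -0.58 ± 0.06, adjusted p = 1.25e-05) and STMN2 (log2 -0.31 ± 0.05, adjusted p = 0.000141), and 0 rose, beside 1.36% of all genes that fell and 0.848% that rose. Of the 14 mesenchymal markers 4 passed as higher and 0 as lower: FOSL1 (log2 0.65 ± 0.10), CD44 (0.44 ± 0.05), ACTA2 (0.30 ± 0.06) and VIM (0.21 ± 0.05). The list did not rise as a whole. With or without a call, 8 of the 14 (57.1%) were above 0, beside 49.4% of all genes. Their median log2 difference was 0.06 and their lowest -0.47. The difference between these lists and the collagen genes was not tested.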

How the data were processed

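Total RNA of 9 SH-SY5Y libraries was sequenced. Per the submitters' processing notes, FastQC, cutadapt, STAR with GRCh38 and edgeR were used, with versions and gene annotation not given in the sources used here. Raw counts of reads per gene, as the authors deposited them, were used, with 76.4% to 78.0% of reads assigned to genes. The count of both strands together was used, since strands were about equally frequent (ratio 0.981 to 0.993). Unmapped, multimapping, ambiguous and unassigned reads did not enter the library sizes or the fits. Of the identifiers, 61369 had a symbol.

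From these counts, edgeR 4.0.16's quasi-likelihood test (robust, TMM, filterByExpr, R 4.3.3) was run over all 9 libraries and all 17806 filtered genes, with Benjamini-Hochberg adjustment at 0.05. The model had dose alone, and the replicate number as a block was the alternative. Comparisons between replicate numbers come from the model with dose and number. Groups and numbers were read from the sample titles. All 9 same-numbered pairs had correlated deviations from their group means (r 0.457 to 0.685), above the limit of 0.1, so the numbers were taken to pair the libraries. Pairs of different numbers ran from -0.545 to 0.139, so the highest passed that limit too, though it lay below every same-numbered pair. Libraries of 1 group always differed by more than counting noise (lowest chi-square divided by its degrees of freedom 7.99).

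Gene lengths, positions and coding sequences are from GENCODE 29 on GRCh38. Values are given in every library for members averaging at least 10 CPM, and by count or range otherwise. Of the other lists, up to 5 genes each with the smallest p past the threshold at 20 µM with the block are named. Members under that level that are named with values were chosen after their values were seen. The members and lists were chosen with earlier results of these data known. DESeq2 1.42.0, limma-voom (limma 3.58.1), other size factors, no filter and leaving out libraries were tried as alternatives. On simulated counts the fits recovered most directions, and with the block the share of false calls was above the nominal one. A deposited table of normalized values was not used.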

Additional observations from a re-analysis of the deposited data

How the results depend on the processing

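For dose, 32 alternatives were run per comparison: the replicate block, DESeq2 size factors, DESeq2, limma-voom, no filter on low counts, only the 2 groups compared, and leaving out libraries, most of them with and without the block. The count of collagen genes called was 0 without the block and 0 with the replicate block in all 3 dose comparisons. It stayed 0 under every alternative that kept all libraries. Leaving out libraries gave 0 to 1 at 20 µM against vehicle, where the 1 gene was COL27A1 without the 20 µM library numbered 1 in the blocked fit, 0 at 10 µM against vehicle, and 0 to 1 at 20 µM against 10 µM, where the 1 gene was COL6A6 without the libraries numbered 2. Where leaving out a library unbalanced the numbers in the fit without the block, COL1A1 ran from -0.61 to 0.58 at 20 µM, with no call. Of 1344 values of the 14 named genes under these settings, 1 gained a call and 150 changed sign with no call in either fit.

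Between numbers 1 and 2 the count of 20 was 19 to 20 under the other tools and settings and 18 to 20 on leaving out 1 library. Between numbers 1 and 3 the count of 17 was 12 to 17 and 11 to 17, the lowest, 11, being without the vehicle library numbered 3 and the 12 being DESeq2. Between numbers 2 and 3 the count of 14 was 14 to 15 in both. Of 546 values of named genes, 14 lost their call, all of COL1A2, COL5A1 or COL11A1, and 0 reversed. Without the filter all 44 collagen genes were tested. Of the 18 genes it had left out, with 3 to 65 reads over 9 libraries, 0 passed in a dose comparison, and 1, COL22A1, passed between numbers 1 and 2.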
